A study of Homo sapiens with 3 samples.

Results

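The occupancy of CHD8 and TRRAP was examined at the start sites of 54 genes that act in mitosis, out of 20033 protein-coding genes. The genes were listed by function, covering mitotic entry, kinetochores and centromeres, the spindle and condensin, by a rule that used no measured value. Earlier results of these data were, however, known when the genes were chosen. The data were peak lists from chromatin immunoprecipitation followed by sequencing (ChIP-seq) of human neural stem cells of wild-type genotype, made from the established embryonic stem cell line H9 and grown with EGF and FGF. CHD8 antibody, TRRAP antibody and control IgG gave 1 library each, all from chromatin crosslinked with disuccinimidyl glutarate and then formaldehyde. The IgG library was not analysed here. The cells are 1 line, and no protein was depleted or changed in any group. Because the peak lists hold no expression values, the labelled cell type was not checked against markers. No library had a replicate, so no difference below has a replicate check and no p-value is given.

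CHD8 is a chromatin remodeler of the chromodomain helicase family, and TRRAP is the scaffold subunit of histone acetyltransferase complexes that transcription factors such as MYC and E2F recruit. Mitotic genes are kept low in resting and early-cycle cells and rise towards division, and neural stem cells need them for every round of proliferation. Their promoters are known for the cell cycle homology region (CHR), a short element near the start site bound by MuvB complexes: the repressive DREAM complex early in the cycle, and MuvB with B-MYB and FOXM1 later. Upstream CCAAT boxes, bound by NF-Y, accompany the CHR in many of them, whereas genes of DNA replication are better known for E2F sites.

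The stretches of 150 bases before the start site are printed for 7 promoters, to show how the CHR and CCAAT words are laid out at genes with both peaks and with CHD8 alone. CDK1, CCNB1, CCNB2, CDC20 and PLK1 are textbook G2/M promoters. NUF2 had the highest CHD8 fold of the members and PRC1 shared the highest TRRAP fold. The sequences are from the GRCh38 genome, 5′ to 3′ along transcription. Capitals mark the CHR word TTTGAA and the CCAAT box on either strand (ATTGG is its reverse complement).
CDK1, chr10:60778328-60778477, plus strand: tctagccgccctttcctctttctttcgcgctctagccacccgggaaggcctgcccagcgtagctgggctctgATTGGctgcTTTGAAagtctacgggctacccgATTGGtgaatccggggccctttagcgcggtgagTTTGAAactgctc
CCNB1, chr5:69167000-69167149, plus strand: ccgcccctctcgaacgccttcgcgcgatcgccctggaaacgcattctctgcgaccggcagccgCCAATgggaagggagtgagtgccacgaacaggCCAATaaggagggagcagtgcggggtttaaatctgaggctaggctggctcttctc
CCNB2, chr15:59104996-59105145, plus strand: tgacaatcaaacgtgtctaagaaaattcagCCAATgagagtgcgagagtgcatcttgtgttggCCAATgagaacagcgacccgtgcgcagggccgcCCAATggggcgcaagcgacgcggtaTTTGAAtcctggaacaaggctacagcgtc
CDC20, chr1:43358831-43358980, plus strand: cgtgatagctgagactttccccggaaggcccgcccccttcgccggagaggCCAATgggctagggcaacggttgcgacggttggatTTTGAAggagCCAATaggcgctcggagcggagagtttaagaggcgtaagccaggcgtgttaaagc
PLK1, chr16:23678739-23678888, plus strand: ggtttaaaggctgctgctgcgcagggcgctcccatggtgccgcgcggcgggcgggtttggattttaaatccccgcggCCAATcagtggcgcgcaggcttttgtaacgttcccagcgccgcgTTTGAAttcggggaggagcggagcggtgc
NUF2, chr1:163321804-163321953, plus strand: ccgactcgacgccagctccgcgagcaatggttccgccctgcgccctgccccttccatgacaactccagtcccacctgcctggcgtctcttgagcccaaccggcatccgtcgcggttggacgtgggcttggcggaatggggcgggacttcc
PRC1, chr15:90994536-90994685, minus strand: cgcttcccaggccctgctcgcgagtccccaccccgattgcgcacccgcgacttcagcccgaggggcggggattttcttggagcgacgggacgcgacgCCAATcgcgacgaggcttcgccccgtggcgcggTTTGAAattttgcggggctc

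In CCNB2, 3 CCAAT boxes stand 120, 87 and 54 bases before the start site, followed by a CHR word at 29 bases. PLK1 has 1 CCAAT box at 73 bases and a CHR at 29 bases, and PRC1 has them at 53 and 20 bases. CDK1 has 2 CHR words and 2 CCAAT boxes in this stretch, and also an E2F word at 128 bases. CCNB1 has CCAAT boxes at 87 and 55 bases and no exact CHR word, and NUF2 has neither word in these 150 bases.

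CHD8 was present at nearly all of the mitosis genes, and TRRAP at a smaller share of them. A CHD8 peak lay within 1 kb of the start site at 53 of the 54 genes (98.1%, Wilson 95% interval 90.2 to 99.7), beside 55.9% of all protein-coding genes. A TRRAP peak did so at 30 genes (55.6%, 42.4 to 68.0), beside 34.9% of all genes. Among peaks above the median rank of the TRRAP list, the count was 9 members (16.7%) beside 19.5% of all genes, so the higher share rested on the weaker peaks. All 30 also had CHD8, so 30 members carried both peaks (background 34.0%), 23 carried CHD8 alone, 0 carried TRRAP alone and 1, CENPI, carried neither. These intervals cover counting error only. Among genes with a CHD8 peak, TRRAP was present at 30 of 53 members (56.6%, 43.3 to 69.0) and at 60.7% of all genes, so the TRRAP share given CHD8 was near the background.

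Promoters rich in CpG held more peaks of both proteins in general. Of the 54 members, 47 fell in the upper 6 of 10 equal classes of promoter CpG ratio, which is the observed over the expected number of CpG dinucleotides in the 500 bp before and the 500 bp after the start. In those classes, 46 of 47 members (97.9%, 88.9 to 99.6) and 79.3% of all genes had CHD8, and 27 of 47 members (57.4%, 43.3 to 70.5) and 52.3% of all genes had TRRAP. The TRRAP share of the members thus lay close to that of genes of similar CpG content. The 7 members in lower classes were CCNB1, CDC25B, AURKB, BIRC5, SPC24, SPC25 and KIF18A, and each of them had a CHD8 peak.

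Strength was measured by the fold, the authors' ratio of ChIP signal to local background for each peak, and was ranked only within a list. The 53 CHD8 peaks had a median fold of 10.6 (range 6.66 to 47.3), beside 12.0 over all 11208 genes with a CHD8 promoter peak, and 20 of the 53 lay above that overall median. The 30 TRRAP peaks had a median fold of 7.69 (6.26 to 12.0), beside 8.65 over 7000 genes, and 9 of 30 lay above it. In neither list were the mitosis genes among the strongest as a group, as both medians lay below those of all genes with a peak. All ranks follow the q-value, with ties broken by fold and then width, so tied peaks can fall on either side of a limit. Ranked among all 23393 CHD8 and 14735 TRRAP peaks, at promoters or elsewhere, 5 CHD8 and 0 TRRAP peaks were in the strongest 10%. In the weakest 20% were 8 of the 30 TRRAP peaks. The same shares over the promoter peaks of all genes are not given here. Folds came in steps of 0.442 (CHD8) and 0.478 (TRRAP), so the members took 27 distinct CHD8 and 10 distinct TRRAP values and many were tied.

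**Figure D1:**
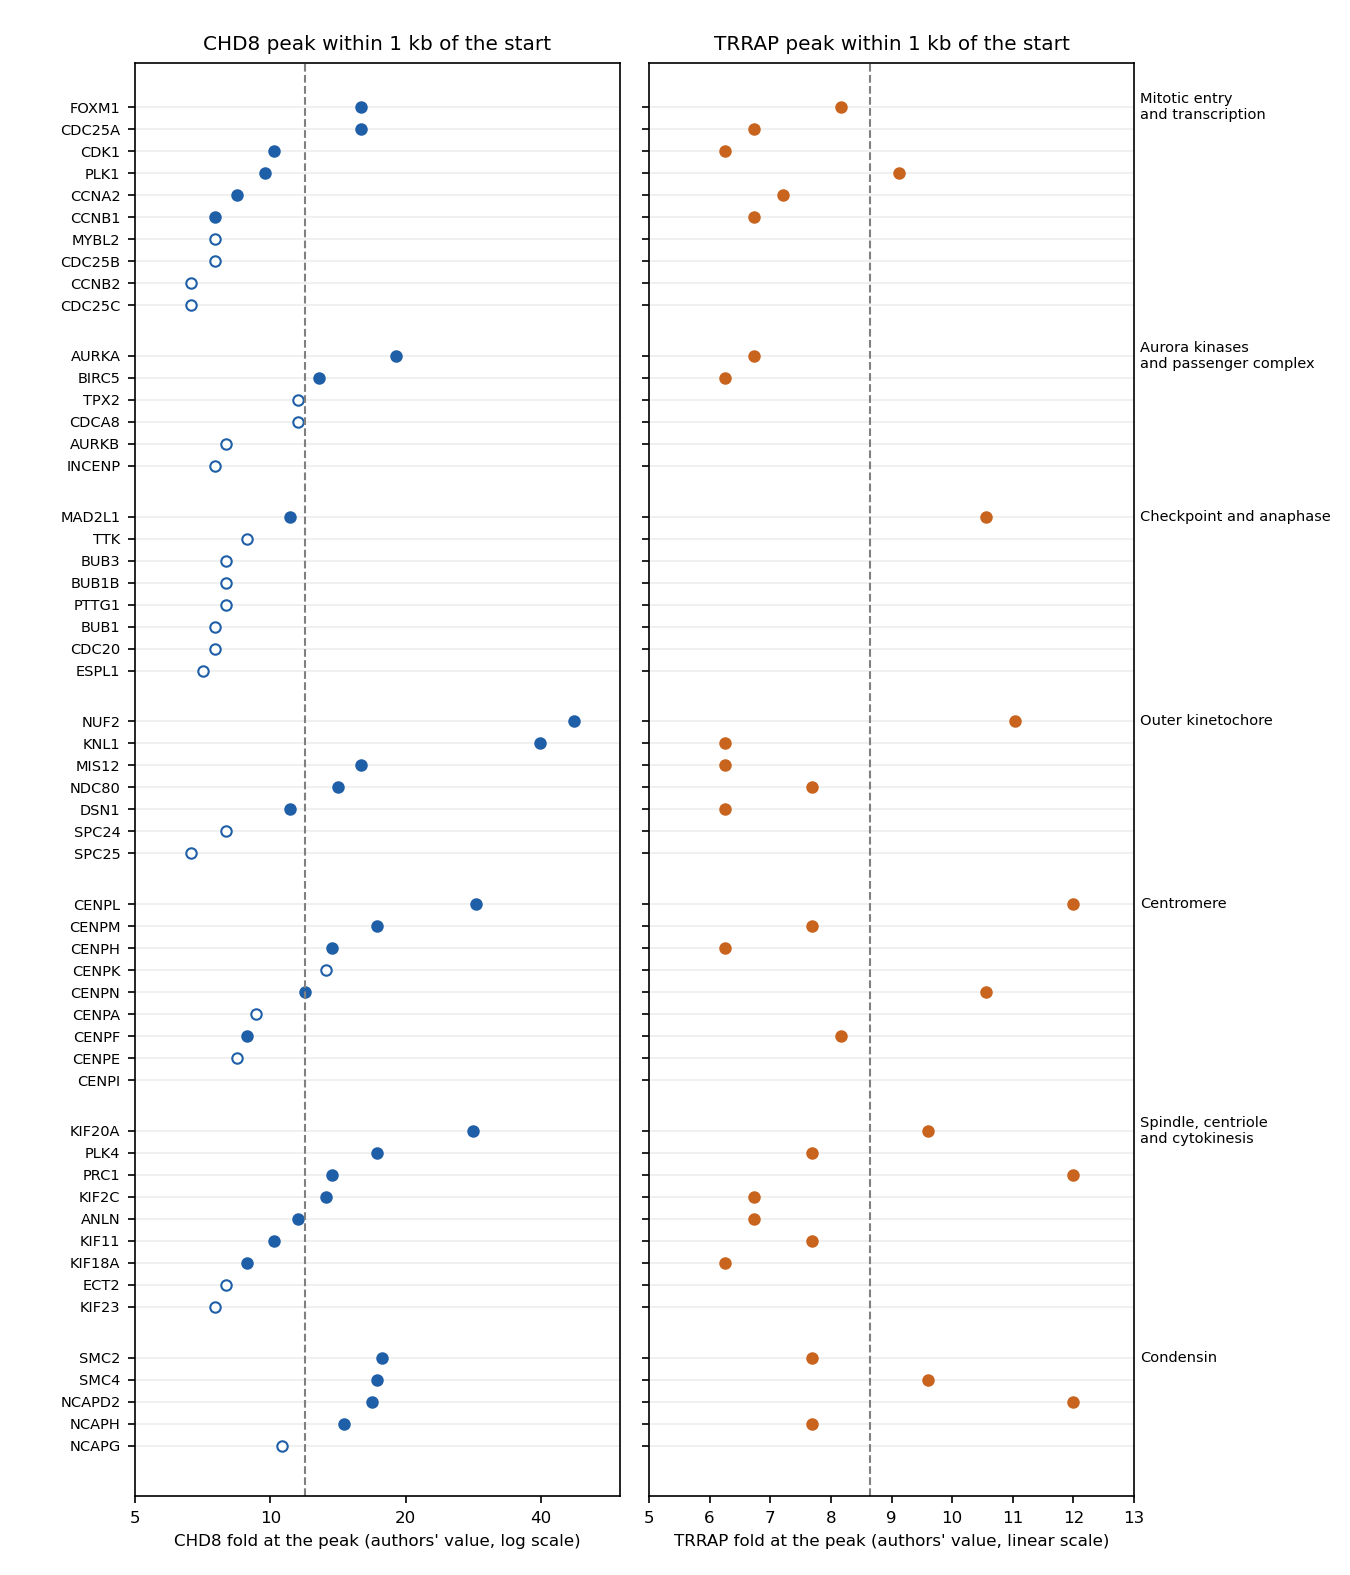
Fold of the most significant CHD8 peak (left, log axis) and TRRAP peak (right, linear axis) within 1 kb of the start of each of the 54 genes, by role. Filled CHD8 points are genes that also had TRRAP, open points had CHD8 alone, CENPI has no point, and dashed lines are the medians of all protein-coding genes with a peak (12.0 and 8.65). NUF2 and KNL1 stand far to the right for CHD8, at 47.3 and 39.8, while 7 of the 30 TRRAP points share the lowest value, 6.26.

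The group of mitotic entry genes holds the kinase CDK1, its cyclins, the CDC25 phosphatases that switch it on, the kinase PLK1 and the transcription factors FOXM1 and MYBL2. All 10 had CHD8 and 6 had TRRAP. CDK1 (chromosome 10) had a CHD8 peak at 60778175 to 60778883 with a fold of 10.2 and the summit 193 bp downstream of the start, in intron 1. The TRRAP peak there, at 60778272 to 60778473, had a fold of 6.26, the lowest among the members and shared by 7 of them, and ended 5 bp before the start site.

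The cyclins differed in TRRAP. CCNA2, the cyclin of S phase and G2, had folds of 8.43 (CHD8) and 7.21 (TRRAP), with summits 10 bp apart. CCNB1, the main mitotic cyclin (chromosome 5), had a CHD8 peak at 69166878 to 69167343 (fold 7.54) and a TRRAP peak at 69166867 to 69167245 (fold 6.73). CCNB2, its close relative (chromosome 15), had a CHD8 peak at 59105143 to 59105687, whose fold of 6.66 was the lowest of the members, shared with CDC25C and SPC25. Its nearest TRRAP peak was 116865 bp from the start.

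CDC25A, which also acts at the G1/S transition, had a CHD8 fold of 15.9 over 1041 bp and a TRRAP fold of 6.73. CDC25B and CDC25C, which act at G2/M, had CHD8 alone, with folds of 7.54 and 6.66. PLK1 (chromosome 16) had a CHD8 peak at 23678573 to 23678939 (fold 9.75) and a TRRAP peak at 23678654 to 23678797 (fold 9.12), with summits 205 and 187 bp upstream. Both PLK1 summits thus lay in the same short stretch.

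The transcription factors of the programme differed as well. FOXM1 (chromosome 12) had a CHD8 peak of 1241 bp at 2876501 to 2877741 (fold 15.9). The TRRAP peak at 2877092 to 2877245 (fold 8.17) had its summit 1 bp upstream. RHNO1 starts 49 bp upstream on the other strand, so these peaks are at both genes. MYBL2, which encodes B-MYB (chromosome 20), had 2 narrow CHD8 peaks and no TRRAP. They lay at 43667469 to 43667627 in intron 1 and at 43667031 to 43667184 over the start, with the same fold of 7.54 and the same significance.

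The Aurora kinases, the spindle factor TPX2 that activates AURKA, and the chromosomal passenger complex of AURKB, INCENP, BIRC5 (survivin) and CDCA8 (borealin) formed the second group. All 6 had CHD8 and 2 had TRRAP. AURKA (chromosome 20) had the fifth highest CHD8 fold of the members, 19.0, at 56392016 to 56392928 with the summit 295 bp upstream. The TRRAP peak of AURKA had a fold of 6.73 and its summit 323 bp upstream, and CSTF1 starts 430 bp upstream on the other strand. BIRC5 had folds of 12.8 (CHD8) and 6.26 (TRRAP), with the TRRAP summit in coding exon 1. The other members had CHD8 alone: TPX2 and CDCA8 with a fold of 11.5, AURKB with 7.98 and INCENP with 7.54.

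The spindle assembly checkpoint holds back anaphase until all chromosomes are attached, through BUB1, BUB1B, BUB3, MAD2L1 and TTK, which restrain CDC20, the activator of the anaphase-promoting complex. Separase (ESPL1) then cuts cohesin after its inhibitor securin (PTTG1) is destroyed. Of these 8 genes, 8 had CHD8 and only MAD2L1 had TRRAP (12.5%, 2.24 to 47.1, for 1 of 8). This was the lowest TRRAP share among the 7 role groups, although the intervals of all 7 overlap. The MAD2L1 TRRAP peak (chromosome 4, 120066606 to 120066921) had a fold of 10.6, which CENPN shared and which only 4 members exceeded, and its summit 65 bp downstream in the 5′ UTR. The CHD8 peak around it spanned 1116 bp with a fold of 11.1.

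The other checkpoint and anaphase genes had CHD8 folds between 7.10 and 8.87, below the overall median of 12.0. TTK was highest with 8.87, and BUB1B, BUB3 and PTTG1 were tied at 7.98. BUB1 (chromosome 2) had a CHD8 peak of 213 bp at 110678112 to 110678324, with a fold of 7.54 and the summit 144 bp upstream. Its nearest TRRAP peak was 100778 bp from the start. CDC20 (chromosome 1) had a CHD8 peak at 43358478 to 43358833 with the same fold of 7.54. Its nearest TRRAP peak was 8987 bp from the start. The CDC20 peak ended 148 bp before the start site, short of the CHR and CCAAT words printed above. A further CHR word, 178 bases before the start and outside the printed stretch, lay inside the peak. ESPL1 had a fold of 7.10.

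The outer kinetochore binds microtubules through the NDC80 complex (NDC80, NUF2, SPC24, SPC25), KNL1 and the MIS12 complex (MIS12, DSN1). All 7 genes had CHD8 and 5 had TRRAP. NUF2 (chromosome 1) had the highest CHD8 fold of all members, 47.3 (−log10 q 149), at 163321543 to 163322241, above 99.1% of the genes with a CHD8 promoter peak. Its TRRAP peak (163321775 to 163321944, fold 11.0) lay above 70.0% of genes with a TRRAP promoter peak. The summits lay 137 and 83 bp upstream.

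KNL1 (chromosome 15) had the next highest CHD8 fold, 39.8 (−log10 q 118), at 40593765 to 40594817, but its TRRAP peak (40593837 to 40594078) was among the 7 with the lowest fold, 6.26. A strong CHD8 peak thus went with a strong TRRAP peak at NUF2 but not at KNL1. Within the NDC80 complex, NDC80 had both peaks (folds 14.2 and 7.69) and shares its promoter with METTL4, which starts 52 bp upstream. SPC24 and SPC25 had CHD8 alone, with folds of 7.98 and 6.66. MIS12 and DSN1 had CHD8 folds of 15.9 and 11.1 and the same TRRAP fold of 6.26. The TRRAP summit of DSN1 lay 664 bp upstream, the farthest of the members, and the peak overlapped the weaker of 2 CHD8 peaks there (fold 8.43).

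CENPA is the histone variant that marks centromeres, CENPE and CENPF are large corona proteins of the kinetochore, and CENPH, CENPI, CENPK, CENPL, CENPM and CENPN belong to the inner network on CENPA chromatin. Of these 9 genes, 8 had CHD8 and 5 had TRRAP. CENPL (chromosome 1) was high in both lists, with folds of 28.8 for CHD8 (173824066 to 173825236) and 12.0 for TRRAP (173824174 to 173824520). Both summits lay downstream of its start, at 379 and 534 bp. A second TRRAP peak of fold 9.60 had its summit 3 bp upstream of the CENPL start.

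CENPN had folds of 12.0 and 10.6, CENPM of 17.3 and 7.69, CENPH of 13.7 and 6.26, and CENPF of 8.87 and 8.17, giving CHD8 before TRRAP. CHD8 alone was found at CENPK (13.3), CENPA (9.31) and CENPE (8.43). The CENPK fold was the highest of the 23 members with CHD8 alone.

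CENPI (chromosome X, start site at 101098204, plus strand) was the member with no peak. The nearest CHD8 peak was 46293 bp and the nearest TRRAP peak 1418157 bp from its start, so no window used here would have included them. Its CpG ratio of 0.736 lay in the sixth of the 10 classes, where 75.2% of all genes had CHD8. It was also the single member on chromosome X, where 32.1% of genes had CHD8 and 11.2% TRRAP, against 57.2% and 36.1% on the autosomes. The part of the chromosome in this absence was not tested. The RefSeq start of CENPI lies 2854 bp from the start used here, which also leaves it far from any peak.

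The spindle and cytokinesis group had 9 of 9 genes with CHD8 and 7 with TRRAP. It includes the kinesin motors, PRC1, which bundles antiparallel microtubules of the central spindle, anillin (ANLN) and ECT2, which act in cleavage, and PLK4, which starts centriole duplication. KIF20A (chromosome 5), a kinesin of the central spindle, had a CHD8 peak of 1248 bp at 138177955 to 138179202 (fold 28.3) and a TRRAP peak at 138178620 to 138178803 (fold 9.60). Its CHD8 summit, 479 bp upstream, coincided within 3 bp with the start of BRD8 on the other strand, at 482 bp.

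PRC1 (chromosome 15) had a TRRAP peak at 90994394 to 90994943 with the highest fold of the members, 12.0 (−log10 q 18.7), which NCAPD2 and CENPL shared. Its CHD8 fold was 13.7 (90994387 to 90995066), and the summits were 12 bp apart. PLK4 had folds of 17.3 and 7.69, and KIF11, the motor that pushes spindle poles apart, of 10.2 and 7.69. KIF2C (13.3 and 6.73), ANLN (11.5 and 6.73) and KIF18A (8.87 and 6.26) had weak TRRAP peaks within that list. ECT2 (7.98) and KIF23 (7.54), which act together in building the cleavage furrow, had CHD8 alone.

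Condensin compacts mitotic chromosomes. SMC2 and SMC4 are its ATPase core, and NCAPD2, NCAPG and NCAPH the other subunits of condensin I. The 5 genes had the highest group median for CHD8, 16.8 (range 10.6 to 17.7), and 4 of 5 had TRRAP. NCAPD2 (chromosome 12) had the widest CHD8 peak of the members, 1403 bp at 6492922 to 6494324, and a fold of 16.8. Another coding gene starts 840 bp upstream on the other strand, inside this peak, so its width covers both starts. NCAPG and SMC4 also have a second coding start within 1 kb. Its TRRAP fold was 12.0 (6493742 to 6494206). The summit of the TRRAP peak was 14 bp upstream. SMC2 had folds of 17.7 and 7.69, SMC4 of 17.3 and 9.60, and NCAPH of 14.6 and 7.69. NCAPG had CHD8 alone, with a fold of 10.6. At the 4 genes with TRRAP, the summit of the most significant TRRAP peak lay within 56 bp upstream of the start. SMC4 had a second, weaker TRRAP peak (fold 6.26) with its summit 176 bp downstream.

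Members with TRRAP tended to have the stronger CHD8 peaks. The 30 genes with both had a median CHD8 fold of 14.0 (range 7.54 to 47.3) and a median CHD8 width of 784 bp, and the 23 with CHD8 alone had 7.98 (6.66 to 13.3) and 356 bp. The ranges overlapped between 7.54 and 13.3. Over all protein-coding genes the same contrast was 13.3 against 10.6 in fold and 745 against 499 bp in width. When the genes with a CHD8 peak were divided into 3 groups at CHD8 folds of 10.2 and 14.6, TRRAP was present at 7 of 26 members in the lower group (26.9%, 13.7 to 46.1), 10 of 14 in the middle (71.4%, 45.4 to 88.3) and 13 of 13 in the upper (lower limit 77.2%). The shares of all genes were 44.7%, 64.6% and 74.2%. These groups were chosen after the values had been seen. Whether a missing TRRAP peak is absent protein or signal under the threshold was not tested, since the depth of the libraries is unknown.

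**Figure D2:**
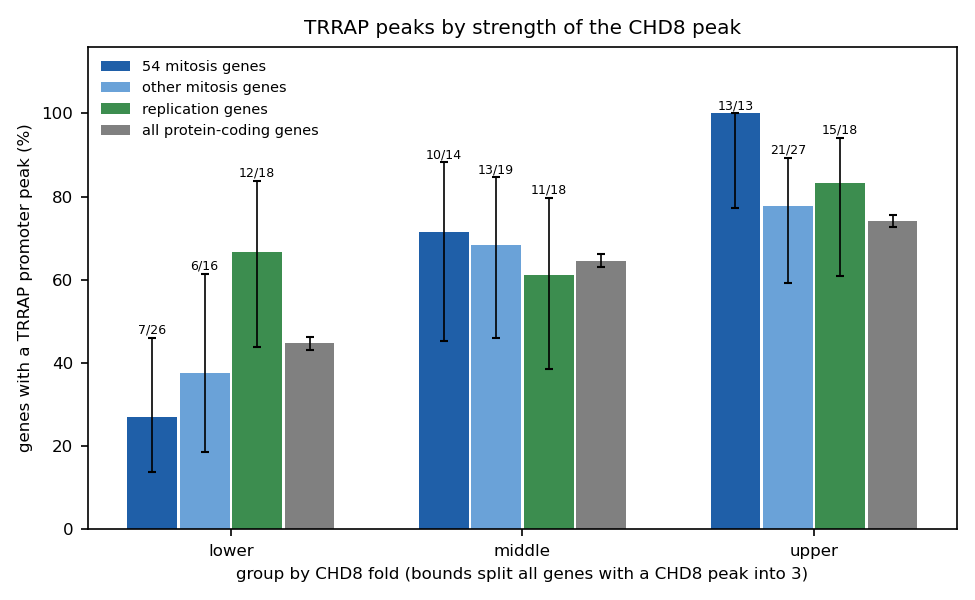
Percentage of genes with a TRRAP promoter peak (bars, with Wilson 95% intervals) in 3 groups by the fold of the CHD8 promoter peak, for the 54 mitosis genes, 64 other mitosis genes, 56 replication genes and all protein-coding genes. The share of the mitosis genes runs from 26.9% in the lower to 13 of 13 in the upper group, while that of all genes runs from 44.7% to 74.2%.

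A list of 64 further mitosis genes, among them the anaphase-promoting complex, the SKA complex, the shugoshins and the MuvB subunits, gave similar counts. CHD8 was present at 62 of 64 (96.9%, 89.3 to 99.1) and TRRAP at 40 (62.5%, 50.3 to 73.3), with median folds of 12.8 and 8.65. Of 56 genes of DNA replication, 54 had CHD8 (96.4%, 87.9 to 99.0) and 38 had TRRAP (67.9%, 54.8 to 78.6), with median folds of 12.4 and 8.41. The intervals of the 3 lists overlapped for both proteins, and the differences between the lists were not tested. In the lower group by CHD8 fold, TRRAP was present at 12 of 18 replication genes (66.7%, 43.7 to 83.7) and at 7 of 26 members, and these intervals overlapped slightly. It was at 6 of 16 other mitosis genes there (37.5%, 18.5 to 61.4). In the upper group it was at 21 of 27 other mitosis genes (77.8%), 15 of 18 replication genes (83.3%) and 13 of 13 members. The rise from the lower to the upper group was thus smaller in both lists than in the members.

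Only peaks within 1 kb of the start sites were taken. Of the 30 TRRAP peaks, 28 lay inside the most significant CHD8 peak of their gene, all but those of CCNB1 and DSN1. A CHD8 peak spanned the start site at 48 members and a TRRAP peak at 22. The median CHD8 summit lay at −87 bp (25th to 75th percentile −211 to 86 bp), with 33 summits upstream, 11 in introns, 6 in 5′ UTRs and 3 in coding exons. The median TRRAP summit lay at −49.5 bp (−168 to 18 bp), with 21 of 30 upstream. Over all genes these medians were −31 and −47 bp. With the peak whose summit was nearest the start taken at each member, the CHD8 median was −33 bp, and the same choice was not computed over all genes. The summits of the 53 CHD8 peaks were a median of 170 bp from the start in either direction, beside 109 bp over all genes. For the 30 TRRAP peaks the order was the reverse, with 84.5 bp beside 133 bp over all genes. The counts of spanning peaks, summit places and TRRAP peaks inside CHD8 peaks have no share over all genes here. They describe the members only.

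At all 30 genes with both, a CHD8 and a TRRAP peak shared at least 1 bp (background 98.4% of genes with both), and the CHD8 peak was the wider at all 30. Median widths were 596 bp for CHD8 (53 peaks) and 234 bp for TRRAP (30 peaks), beside 638 and 269 bp over all genes. The summits of the most significant peaks were a median of 144 bp apart (10 to 522 bp), beside 105 bp over all genes, and 12 pairs lay within 100 bp. The counts of wider CHD8 peaks and of pairs within 100 bp likewise have no share over all genes here. The closest pairs were at CCNA2 (10 bp), PRC1 (12 bp) and PLK1 (18 bp), and the farthest at CDC25A and ANLN (522 bp each).

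**Figure D3:**
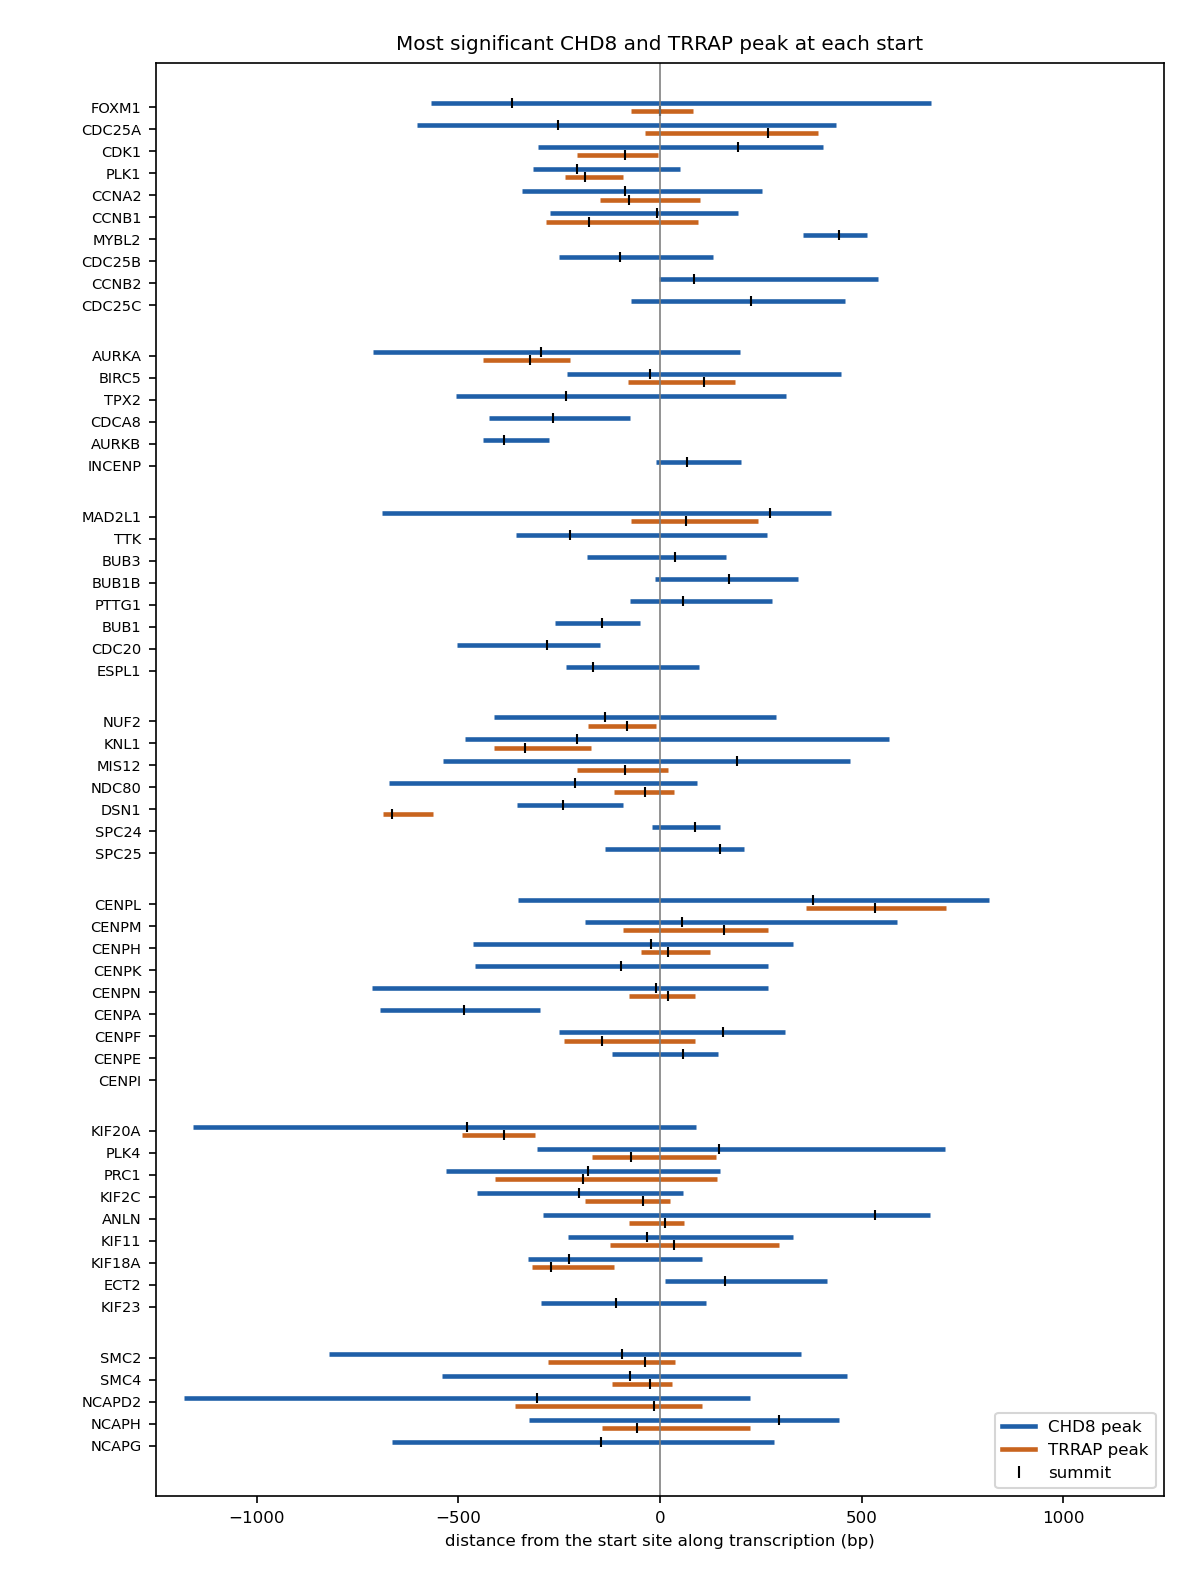
Extent of the most significant CHD8 (upper bar of each pair) and TRRAP (lower bar) peak at each of the 54 genes, with summits as ticks, against distance from the start site along transcription (negative is upstream). TRRAP bars are shorter and 28 of 30 fall inside the CHD8 bar, and the TRRAP bar of DSN1, with its summit 664 bp upstream, lies outside the CHD8 bar drawn for that gene.

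A second coding gene started within 1 kb at 12 members, at 11 of them upstream on the opposite strand. TRRAP was present at 10 of these 12 (83.3%, 55.2 to 95.3) and at 20 of the other 42 (47.6%, 33.4 to 62.3). Over all protein-coding genes the shares were 54.9% with and 31.7% without such a neighbour, where CHD8 was at 87.1% and 50.9%. Among all genes with a CHD8 peak, TRRAP was at 62.6% with and 60.2% without a neighbour, so they hardly differed. The same shares of the members with CHD8 were 83.3% and 48.8%, with overlapping intervals (55.2 to 95.3 and 34.3 to 63.5). The difference was not tested. The members with a neighbour also had wider CHD8 peaks, with a median of 994.5 bp against 512 bp, and a higher median CHD8 fold, 15.9 against 8.87. Over all genes with a CHD8 peak the same contrasts were 759 against 602 bp and 14.2 against 11.5. The 2 members with a neighbour and no TRRAP were CENPK, beside PPWD1, and NCAPG, beside DCAF16. The position of a peak between such starts does not assign it to either gene. The strongest CHD8 peaks of the members, at NUF2 and KNL1, had no such neighbour.

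The CHR and CCAAT words were more frequent at the mitosis genes than at protein-coding genes in general. The CHR word (TTTGAA, either strand, no mismatch) occurred between 250 bp before and 50 bp after the start at 37 of 54 members (68.5%, 55.3 to 79.3), 11.5% of all protein-coding genes and 2 of 56 replication genes (3.57%, 0.985 to 12.1). It occurred at 33 of the 64 other mitosis genes (51.6%, 39.6 to 63.4). At the members, the CHR nearest the start had its first base at a median of −18 bp (−29 to 3 bp). Within 40 bp before the start, a window chosen after these positions had been seen, 22 members (40.7%) and 1.55% of all genes carried it. So did 13 of the 64 other mitosis genes (20.3%).

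A CCAAT box was found at 39 members (72.2%, 59.1 to 82.4), 36.1% of all genes and 32 of 56 replication genes (57.1%, 44.1 to 69.2). It was found at 40 of the 64 other mitosis genes (62.5%, 50.3 to 73.3). At least 2 boxes were found at 26 members (48.1%, 35.4 to 61.1) and 12.4% of all genes. The other mitosis genes had them at 19 of 64 (29.7%, 19.9 to 41.8) and the replication genes at 17 of 56 (30.4%, 19.9 to 43.3). The 79 boxes of the members were at a median of −73 bp (−107 to −53 bp). CHR and CCAAT occurred together at 27 members (50.0%), 20 of the 64 other mitosis genes (31.25%) and 4.92% of all genes. The E2F words (TTTCCCGC, TTTGGCGC, TTTCGCGC or TTTGCCGC) occurred at 5 members (9.26%, 4.02 to 19.9), namely CDK1, CDC25A, MIS12, CENPA and CENPH, against 24 of 56 replication genes (42.9%, 30.8 to 55.9) and 4.38% of all genes.

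**Figure D4:**
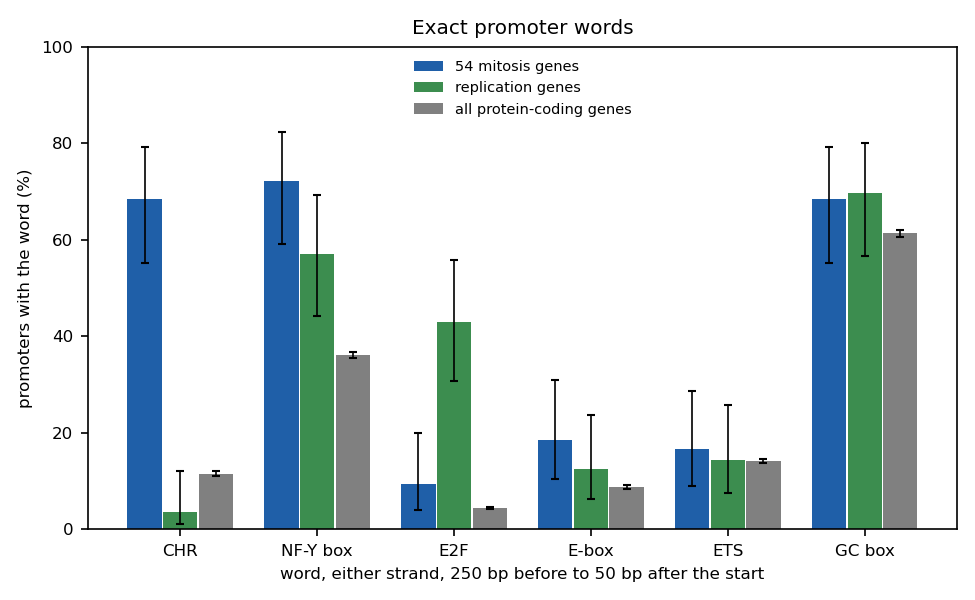
Percentage of promoters with each exact word (bars, with Wilson 95% intervals) for the 54 mitosis genes, 56 replication genes and all 20033 protein-coding genes. NF-Y box stands for the CCAAT word. The CHR word is at 68.5% of the mitosis promoters and 3.57% of the replication promoters, and the E2F words are at 9.26% and 42.9%.

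The E-box CACGTG, which MYC and MAX bind, was at 10 members (18.5%, 10.4 to 30.8) and 8.77% of all genes. With the search begun 150 bp before the start, it was at 4 members (7.41%) and 6.67% of all genes, so its excess depended on the window. The ETS word CCGGAAG was at 9 members (16.7%) and 14.1% of all genes, and at 5 members (9.26%) and 12.1% in the shorter window. The GC box GGGCGG was at 37 members (68.5%) and 61.4% of all genes. Among all genes with a CHD8 peak, the GC box was at 77.1% and the ETS word at 22.1%, both above the shares of the members. The E-box was at 10.4% of those genes, the CHR at 8.52%, the CCAAT box at 37.5% and the E2F words at 6.14%, all below the members. The word GGGCGG can overlap CCGGAAG or an E2F word, while CCAAT and TTTGAA can share at most 1 letter at their ends. A match describes letters only and is not a shown binding site.

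The CHR was about as frequent at members with and without TRRAP: 20 of 30 with both peaks (66.7%, 48.8 to 80.8) and 16 of 23 with CHD8 alone (69.6%, 49.1 to 84.4). CCAAT boxes were at 19 of 30 (63.3%, 45.5 to 78.1) and 19 of 23 (82.6%, 62.9 to 93.0), and at least 2 of them at 10 of 30 (33.3%, 19.2 to 51.2) and 15 of 23 (65.2%, 44.9 to 81.2). The difference between the classes was not tested. By role, the CHR was at 6 of 6 Aurora and passenger genes and 6 of 8 checkpoint and anaphase genes, the groups with the fewest TRRAP peaks, and at 4 of 5 condensin genes, which had the highest share. The CHD8 summit lay a median of 156 bp from the nearest CHR in 36 members with both a CHR and a peak, so the summits were mostly not at the CHR itself.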

How the data were processed

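ChIP-seq peak lists for CHD8 and TRRAP were used, with 1 library each. The authors' processing used HISAT2 and MACS2 2.1.1.20160309 on GRCh38, per the submitters' processing notes. The name of the deposited CHD8 list carries an FDR of 0.0001 and that of the TRRAP list 0.001, so the CHD8 limit is the stricter. The control and the filters are not given in the sources used here, and read totals are unknown. Each list gives, as deposited by the authors, a fold (a linear ratio of signal over background), −log10 p and −log10 q values, and a score that equals 10 times −log10 q rounded down. The score and −log10 p were not used. No peak ran past the end of its GRCh38 chromosome.

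Start sites were those of GENCODE 44 canonical transcripts on chromosomes 1 to 22, X and Y. A peak belonged to a gene if it touched the 1 kb on either side, and the most significant peak was used where several did (8 members for CHD8, 6 for TRRAP). RefSeq start sites (GRCh38.p14) were listed for 44 of the 54 genes, of which 42 lay within 50 bp of the start used. The search for words took both strands and allowed no mismatch. Assignment and search were tested on simulated data. The software was pandas 2.3.3, numpy 2.4.6, scipy 1.17.1 and matplotlib 3.10.9 under Python 3.11.15.

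With 1 library per antibody, no test was made. Shares carry Wilson 95% intervals, and the share of all protein-coding genes stands beside them. Members and lists were chosen with earlier results of these data known. Described in full are the 5 highest folds of each list among members with both peaks, members with neither peak or with TRRAP alone, and CDK1, CCNB1, CCNB2, CDC20, PLK1, BUB1, FOXM1 and MYBL2. The promoter sequence of 1 further member and the name of 1 neighbouring gene are not reported here. Alternatives covered the window, the start sites, the rank and q-value of peaks, overlap, neighbouring genes and the word window.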

Additional observations from a re-analysis of the deposited data

How the results depend on the processing

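No paired analysis was possible because each antibody had 1 library. The counts of members with CHD8, with TRRAP and with both stayed within 1.5 times the reported values under every alternative but 1. TRRAP was at 29 members with a window of 500 bp (DSN1 lost), at 30 with 2500 bp and at 32 with the starts of all transcripts (CDC25C and CENPA gained). Restriction to peaks above the median rank of each list left 30 members with CHD8, 9 with TRRAP and 9 with both. These were 55.6%, 16.7% and 16.7% of the members beside 42.5%, 19.5% and 16.7% of all genes, so the excess over all genes for TRRAP and for both was not seen among the stronger peaks. Using fewer peaks can only lower these counts. For TRRAP, however, the share fell from 55.6% to 16.7% of the members and from 34.9% to 19.5% of all genes. Overlap of the peaks held at 29 members (53.7%, all genes 32.8%) when at least 50% of the narrower peak was required. With summits within 200 bp it held at 22 (40.7%, all genes 27.5%). Taking the peak nearest the start moved the median CHD8 summit from −87 to −33 bp and left the median folds and widths as they were. With words searched from 150 bp before to 50 bp after the start, the E-box was at 4 members (7.41%, all genes 6.67%) and the ETS word at 5 (9.26%, all genes 12.1%). The other word counts stayed within 1.5 times, and the CHR was at 37 and 39 members under the alternatives. A missing peak shows only that none passed the authors' threshold at an unknown depth.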
